A study of Mus musculus with 2 samples.

Results

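The enzymes that convert foreign chemicals and steroids were examined in mouse colon epithelial cells incubated with MIF or with PBS. Genes were taken by symbol prefix: numbered Cyp genes, Ugt1 and Ugt2, the glutathione transferases Gsta, Gstm, Gstp, Gstt, Gsto, Gstk and Mgst, the sulfotransferases Sult, numbered carboxylesterases Ces, Aldh and Akr1. Of 8721 genes with a name of their own in the table, 88 met the prefixes, through 117 probe sets. Where a gene had several probe sets, the one of highest mean log2 signal stood for it. Another 7 probe sets with these prefixes were tied to several genes and stayed outside, among them those of the Ugt1 locus, so that every glucuronosyltransferase considered here is of the Ugt2 family.

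The MIF sample was RNA of colon epithelial cells from C57BL/6 mice, an inbred strain, at an age of 7 weeks, incubated with MIF, taken here to be the cytokine macrophage migration inhibitory factor. The PBS sample was RNA of colon epithelial cells of the same strain and age incubated with phosphate-buffered saline. Each was hybridised to 1 Affymetrix array, so differences could not be set against a spread between samples and no p-value is given. The sources used here give neither the dose and duration of the incubation nor how many animals were used and how the cells were isolated.

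Detoxification runs in stages. Cytochromes P450 add oxygen, and carboxylesterases, aldehyde dehydrogenases and aldo-keto reductases split esters or oxidise and reduce carbonyl groups. Glucuronosyltransferases, sulfotransferases and glutathione transferases then attach a soluble group, after which the product is exported. In the intestine these enzymes meet drugs, plant compounds, bile acids and bacterial products before the liver does, and many of them also act on the body's own steroids, retinoids and lipid mediators.

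Most detoxification genes had nearly equal signals on the 2 arrays, and the few that stood out were mostly higher in MIF-incubated cells. The carboxylesterase genes Ces1d and Ces1g and the cytochrome P450 gene Cyp2c68 were 1.58-fold, 1.53-fold and 1.503-fold higher in MIF-incubated cells. The sulfotransferase gene Sult2b1 was 1.36-fold lower. Among conjugating enzymes, Gstp1, Mgst1 and Sult1d1 differed by less than 0.1 on the log2 scale on the probe sets used. A second probe set of Sult1d1 gave 0.18.

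A signal floor of 232, the 40th percentile of all signals, was set on both arrays, and lower values were raised to it. Of the 88 genes, 54 exceeded the floor on both arrays, 3 exceeded it with MIF but not with PBS, and 31 exceeded it on neither array and were not assessed. At 1.5-fold, 3 of the 57 assessed genes were higher with MIF (5.26%), against a background of 0.634% over all 5837 assessed genes. After median centring Ces1d alone stayed past 1.5-fold (background 0.480%), and after quantile normalization Ces1d and Ces1g did (background 0.583%). None was 1.5-fold lower, where the background was 0.463%. At 1.2-fold, 9 of the 57 were higher (15.8%, background 6.82%) and 2 were lower (3.51%, background 6.29%). After both columns were centred on their medians, 56 genes were assessed, of which 7 were higher (12.5%, background 5.16%) and 4 lower (7.14%, background 8.74%). Cyp2c68, at 1.503-fold, lay just inside the 1.5-fold threshold, and Aldh1a7, at 1.44-fold, was the nearest gene outside it.

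The 3 genes under the floor with PBS could only count as higher, so direction was read over the 54 genes measured on both arrays. Their median log2 difference, MIF minus PBS, was 0.04, with quartiles of -0.09 and 0.18. Over all 5545 genes measured on both arrays it was -0.01, with quartiles of -0.11 and 0.10. Of the 54, 33 (61.1%) had a higher signal on the MIF array, against 46.5% of all such genes. After centring on the medians these were 27 of 54 and 37.9%, and the median of the 54 was 0.0020. Where both signals exceeded the floor, the SD of the log2 difference was 0.23 for detoxification genes and 0.19 for all genes. These genes were also split into 4 equal groups by mean signal. In the group of lowest signal the 6 detoxification genes had a median of 0.22 and all genes 0.0084. In the next groups upward the detoxification medians were 0.03 (8 genes), 0.07 (11 genes) and 0.01 (29 genes), and those of all genes were 0.0042, -0.01 and -0.04.

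**Figure D1:**
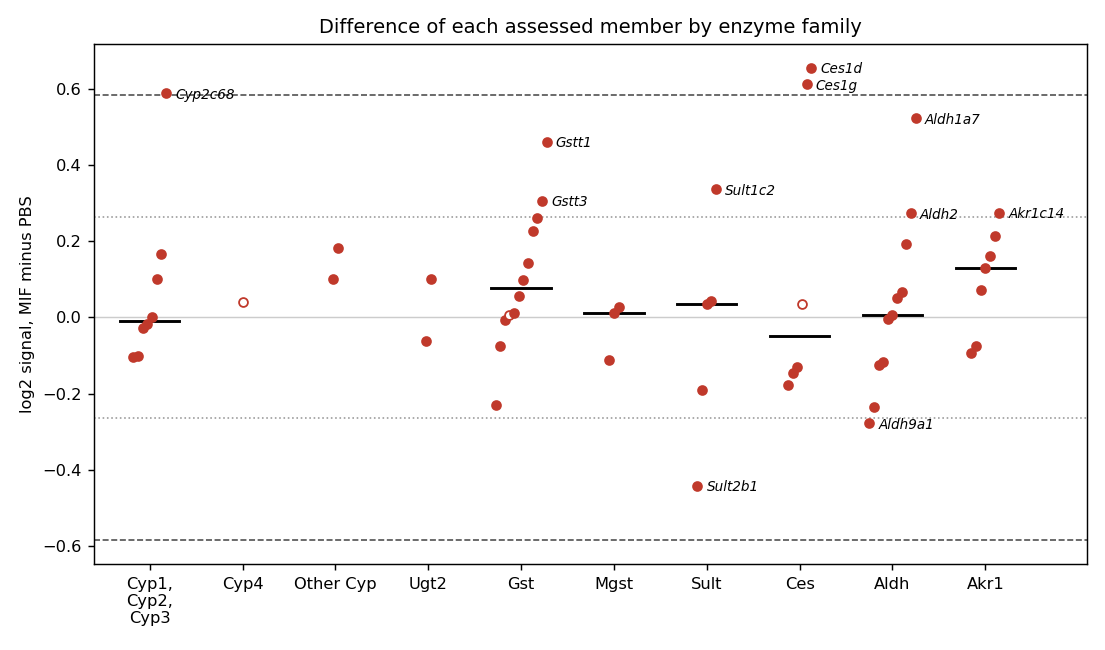
Log2 signal difference, MIF minus PBS (vertical axis), for each of the 57 assessed genes, by enzyme family. Filled points exceeded the floor on both arrays, open points only with MIF (lower bounds). Black bars are medians of families with at least 3 assessed genes, dotted lines mark 1.2-fold and dashed lines 1.5-fold. Ces1d, Ces1g and Cyp2c68 lie above the upper dashed line and no gene lies below the lower one.

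Carboxylesterases hydrolyse ester drugs and also cholesteryl esters and triacylglycerols. Ces1d, which in mouse is known as a triacylglycerol hydrolase, had a signal of 503 on the MIF array, against 319 on the PBS array, a log2 difference of 0.66. Ces1g, a lipid ester hydrolase of liver and intestine, had 979 on the MIF array, against 640 on the PBS array, a log2 difference of 0.61. Both were the largest differences among the 54 detoxification genes measured on both arrays. The PBS signal of Ces1d was closer to the floor, and with a floor at the 60th percentile its difference was a bound of 0.02, whereas that of Ces1g was still 0.61.

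The 3 other carboxylesterase genes measured on both arrays were lower with MIF. Ces1f had 1856 on the MIF array, against 2032 on the PBS array. Ces2a had 840 with MIF, against 930 with PBS, and Ces2e, a close relative, had 1289 with MIF, against 1457 with PBS. These 3 log2 differences were -0.13, -0.15 and -0.18. Ces2g had 237 on the MIF array and 174, under the floor, on the PBS array, a bound of at least 1.02-fold higher. The median over the 6 assessed Ces genes, with Ces2g at its bound, was -0.05 and turned to 0.03 when probe sets ending in _x_at, _s_at or _a_at were left out. That step removed Ces1f, and the 0.03 is the bound of Ces2g itself. Both medians therefore depend on the floor.

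In the gene order of the mouse assembly GRCm38.p6, Ces1d, Ces1e, Ces1f and Ces1g are consecutive protein-coding genes on chromosome 8. Thus Ces1f, between the others, was lower on the MIF array by -0.13 on the log2 scale, while Ces1d and Ces1g were higher. Ces1e lay under the floor on both arrays, at 145 with MIF and 189 with PBS. The Ces1f probe set is of the kind that can match several related transcripts (_s_at).

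Among the cytochromes P450 of families Cyp1, Cyp2 and Cyp3, which carry most drug oxidation, 8 of 18 genes were assessed. The 18 were Cyp2 genes and Cyp3a13. No Cyp1 gene was among the genes with a name of their own, so that family was not examined. Cyp2c68, of a subfamily that oxidises arachidonic acid as well as drugs, had 1111 on the MIF array, against 739 on the PBS array, a log2 difference of 0.59. It was the only one of the 8 to pass 1.2-fold. Cyp2c55, an arachidonic acid hydroxylase abundant in mouse colon, had 4811 with MIF, against 4283 with PBS (log2 difference 0.17). Cyp2c65, its neighbour on chromosome 19, had 3228 with MIF, against 3294 with PBS (-0.03). Cyp2c68 lies in the same stretch of chromosome 19, so the 3 assessed Cyp2c genes ranged from -0.03 to 0.59.

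Promoter sequences are printed for the members with the largest differences in each direction for which the RefSeq promoter table (GRCm38.p6) has an entry. Each runs from 250 bases before a start site to 50 bases after it, and 72 of the 88 genes had an entry, with 86 promoters in all. Capitals mark matches on either strand to 7 motifs. These were GCGTG (the core bound by the dioxin receptor AHR), TGACNNNGC (the antioxidant element of NRF2), AGGTCA (a nuclear receptor half-site) and GTTAAT (an HNF1 half-site). The others were TTTATNG for the intestinal CDX factors, AGATAA for zinc finger proteins of the GATA family, and the letters TATAAA of the TATA box. The Ces1g promoter lies at chr8:93337160-93337459 on the minus strand, that of Cyp2c68 at chr19:39741052-39741351 on the minus strand, and those of Sult2b1 at chr7:45759563-45759862 and chr7:45742429-45742728, also on the minus strand.
Ces1g: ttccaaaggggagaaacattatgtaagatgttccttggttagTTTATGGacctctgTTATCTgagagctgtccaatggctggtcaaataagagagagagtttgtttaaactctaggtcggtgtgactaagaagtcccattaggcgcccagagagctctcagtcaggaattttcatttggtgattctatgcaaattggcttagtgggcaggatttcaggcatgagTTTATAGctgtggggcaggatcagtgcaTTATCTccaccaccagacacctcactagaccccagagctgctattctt
Cyp2c68: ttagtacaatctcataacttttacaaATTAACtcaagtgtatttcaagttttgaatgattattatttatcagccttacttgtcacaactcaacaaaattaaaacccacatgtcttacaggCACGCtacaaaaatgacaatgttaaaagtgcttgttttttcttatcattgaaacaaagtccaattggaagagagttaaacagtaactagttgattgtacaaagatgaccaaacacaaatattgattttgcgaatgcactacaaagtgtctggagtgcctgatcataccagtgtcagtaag
Sult2b1, upstream start site: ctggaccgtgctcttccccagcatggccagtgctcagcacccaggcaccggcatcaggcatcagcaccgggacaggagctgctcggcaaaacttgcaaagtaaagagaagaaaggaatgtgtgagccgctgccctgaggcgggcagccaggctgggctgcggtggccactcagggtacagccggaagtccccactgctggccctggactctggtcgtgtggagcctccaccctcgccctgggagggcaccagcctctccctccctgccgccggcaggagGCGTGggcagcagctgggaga
Sult2b1, downstream start site: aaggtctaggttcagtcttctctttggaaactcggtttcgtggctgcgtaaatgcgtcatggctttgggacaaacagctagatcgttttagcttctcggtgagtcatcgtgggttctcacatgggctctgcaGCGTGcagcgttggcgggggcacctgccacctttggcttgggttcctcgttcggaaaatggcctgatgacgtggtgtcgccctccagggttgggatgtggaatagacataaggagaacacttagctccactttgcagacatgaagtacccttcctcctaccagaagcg

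The promoter of Ces1g held 2 matches to the CDX letters and 2 to the GATA letters. The second CDX match, at bases 225 to 231 of the window, overlapped a TATA box read on the opposite strand. That of Cyp2c68 held 1 match to the AHR core and 1 to the HNF1 half-site, and each Sult2b1 promoter held 1 AHR core. The AHR core occurred in 32.4% of all 32851 promoters of the table and in 26.7% of the 86 promoters of detoxification genes. The CDX letters were in 10.9% and 6.98%, GATA in 11.2% and 12.8%, the HNF1 half-site in 7.10% and 10.5%, and the TATA box in 13.6% and 16.3%. The NRF2 element was in 12.4% and 9.30%, and the nuclear receptor half-site in 16.3% and 15.1%. A match describes letters only and not binding.

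The remaining assessed P450 genes of these families differed little. Cyp2j6, an epoxygenase also found in intestine, had 441 on the MIF array, against 411 on the PBS array (log2 difference 0.10). Cyp3a13, an intestinal member of the drug-oxidising Cyp3a subfamily, had 624 with MIF, against 669 with PBS (-0.10). Cyp2d26 had 1176 with MIF, against 1263 with PBS (-0.10). Cyp2d34 had 718 with MIF, against 726 with PBS (-0.02). Cyp2s1, a P450 of epithelia outside the liver that dioxin induces, had 1167 on each array. The median over the 8 genes was -0.0081, and was 0.0056 after quantile normalization and 0.0033 after removal of the trend with intensity.

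P450 genes of sterol and fatty acid metabolism were mostly under the floor. Cyp51, the lanosterol demethylase of cholesterol synthesis, had 1861 on the MIF array, against 1641 on the PBS array (log2 difference 0.18). Cyp39a1, an oxysterol hydroxylase, had 284 with MIF, against 265 with PBS (0.10). The fatty acid hydroxylase gene Cyp4f13 had 238 on the MIF array and 201, under the floor, on the PBS array, a bound of at least 1.03-fold higher. Cyp27a1, the sterol hydroxylase of mitochondria, had 214 with MIF and 162 with PBS, both under the floor, as were Cyp7a1, the rate-limiting enzyme of bile acid synthesis in liver, at 25.1 and 26.3, and the vitamin D hydroxylase Cyp24a1, at 15.1 and 13.9.

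**Figure D2:**
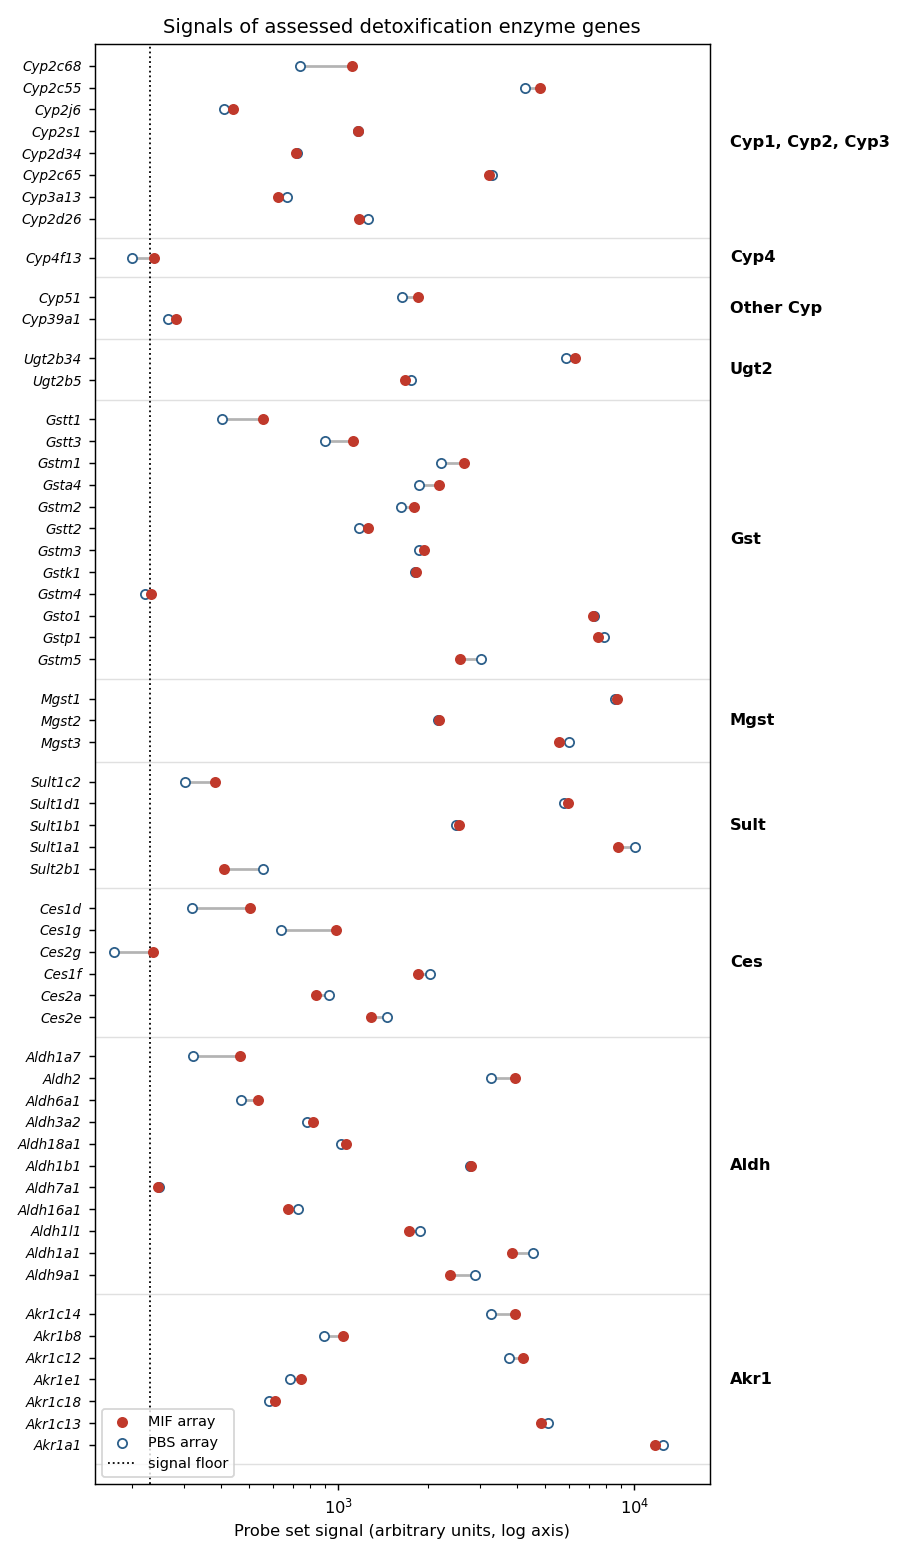
Signal of the 57 assessed genes on the MIF array (filled) and the PBS array (open), on a log axis, by family and in order of the log2 difference within each. The dotted line is the signal floor of 232. Most pairs of points touch, and Ces1d, Ces1g, Cyp2c68, Aldh1a7 and Gstt1 show the widest gaps with the MIF point to the right. Signals of different probe sets depend on their probes and are not comparable as levels.

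Glutathione transferases join glutathione to electrophiles such as lipid peroxidation products. Of 16 cytosolic members, 12 were assessed, 1 of them at a bound, with a median log2 difference of 0.08 that stayed above 0 under the 8 alternatives tried, from 0.06 to 0.14. The theta class genes were all higher on the MIF array, as were 46.5% of all genes measured on both arrays. Gstt1, which acts on small halogenated compounds, had 558 with MIF, against 405 with PBS (log2 difference 0.46). With the floor at the 60th percentile this was a bound of 0.17. Gstt3 had 1116 with MIF, against 903 with PBS (0.31), and Gstt2 had 1259 with MIF, against 1177 with PBS (0.10). The theta genes lie side by side on chromosome 10, with 1 other protein-coding gene between Gstt1 and Gstt2.

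The mu class genes, which form a run of 7 neighbouring genes on chromosome 3, did not go one way. Gstm1 had 2655 with MIF, against 2215 with PBS (log2 difference 0.26), and Gstm2 had 1801 with MIF, against 1630 with PBS (0.14). Gstm3 had 1947 with MIF, against 1872 with PBS (0.06). Gstm5, at one end of the run, was lower, with 2585 on the MIF array, against 3032 on the PBS array (-0.23). Gstm4 lay at the floor, at 233 with MIF and 222 with PBS, a bound of at least 1.004-fold higher, and Gstm6 and Gstm7 lay under it on both arrays.

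Other glutathione transferases were Gsta4, which conjugates the lipid aldehyde hydroxynonenal and had 2189 with MIF, against 1870 with PBS (log2 difference 0.23). Gstk1, of mitochondria and peroxisomes, had 1833 with MIF and 1819 with PBS. Gsto1, a thioltransferase of the omega class, had 7268 with MIF and 7308 with PBS. Gstp1, the pi class enzyme, had 7519 with MIF, against 7919 with PBS, a log2 difference of -0.07 that turned to 0.02 with quantile normalization. The membrane-bound enzymes Mgst1 (8747 with MIF and 8578 with PBS) and Mgst2 (2184 and 2164, in the same order) were near equal. Mgst3, which like Mgst2 can make leukotriene C, had 5573 with MIF, against 6022 with PBS (-0.11).

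Sulfotransferases held the largest difference towards PBS. Sult2b1, which sulfates cholesterol and hydroxysteroids, had 410 on the MIF array, against 556 on the PBS array, a log2 difference of -0.44. With the floor at the 60th percentile it was a bound of -0.16. Sult1c2, in contrast, had 384 with MIF, against 304 with PBS (0.34), and was not assessed with that higher floor. The phenol sulfotransferase Sult1a1 had 8777 with MIF, against 10009 with PBS (-0.19). Sult1b1, which sulfates phenols and thyroid hormones, had 2563 with MIF and 2502 with PBS, and Sult1d1, a catecholamine sulfotransferase in mouse, had 5944 with MIF and 5770 with PBS. A second probe set of Sult1d1 had 3064 with MIF, against 2703 with PBS (0.18). The median of the 5 genes was 0.03, and -0.0022 after centring on the medians.

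On the probe sets used, both assessed glucuronosyltransferases differed by about 0.1 or less on the log2 scale. Ugt2b34 had 6280 with MIF, against 5853 with PBS (0.10), and Ugt2b5, which acts on steroids, had 1685 with MIF, against 1760 with PBS (-0.06). A second probe set of Ugt2b34 had 4664 with MIF, against 4085 with PBS (0.19). The third gene, Ugt2b1, lay under the floor.

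Aldehyde dehydrogenases oxidise aldehydes to acids, although several genes of the name serve amino acid or folate metabolism rather than detoxification. Of 14 genes, 11 were assessed, with a median of 0.0060, or -0.03 after centring on the medians. Aldh1a7, a rodent relative of Aldh1a1, had 465 on the MIF array, against 323 on the PBS array, a log2 difference of 0.52. Aldh1a1, the adjacent gene on chromosome 19, which makes retinoic acid, went the other way, with 3850 with MIF, against 4532 with PBS (-0.24). Aldh2, the mitochondrial acetaldehyde dehydrogenase, had 3944 with MIF, against 3264 with PBS (0.27). Aldh9a1, of carnitine and polyamine metabolism, had 2379 with MIF, against 2885 with PBS (-0.28).

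The other aldehyde dehydrogenase genes stayed within 1.2-fold. Aldh6a1, of valine breakdown, had 537 with MIF, against 470 with PBS (log2 difference 0.19). Aldh1l1, a folate enzyme, had 1731 with MIF, against 1889 with PBS (-0.13), and Aldh16a1 had 676 with MIF, against 733 with PBS (-0.12). The fatty aldehyde enzyme Aldh3a2, with 820 and 783, and the proline synthesis gene Aldh18a1, with 1060 and 1024, were slightly higher with MIF than with PBS. Aldh1b1 (2801 with MIF and 2789 with PBS) and Aldh7a1 (246 with MIF and 247 with PBS) were near equal, the second close to the floor.

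Aldo-keto reductases of the Akr1 family reduce aldehydes and ketosteroids. Of 7 assessed genes, 5 were higher on the MIF array (71.4%, against 46.5% of all genes measured on both arrays), a share over few genes. Their median log2 difference over all 7 was 0.13 and ranged from 0.09 to 0.15 under the 8 alternatives. Akr1c14, a hydroxysteroid dehydrogenase, had 3952 with MIF, against 3266 with PBS (0.28), and was the only one to pass 1.2-fold. Akr1b8, an aldose reductase-like enzyme, had 1040 with MIF, against 897 with PBS (0.21). Akr1c12 had 4205 with MIF, against 3757 with PBS (0.16), whereas Akr1c13 had 4847 with MIF, against 5104 with PBS (-0.07). Akr1e1 had 749 with MIF, against 684 with PBS (0.13), and Akr1c18, which inactivates progesterone, had 612 with MIF, against 582 with PBS (0.07). Akr1a1, the aldehyde reductase, had 11740 with MIF, against 12528 with PBS (-0.09).

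**Figure D3:**
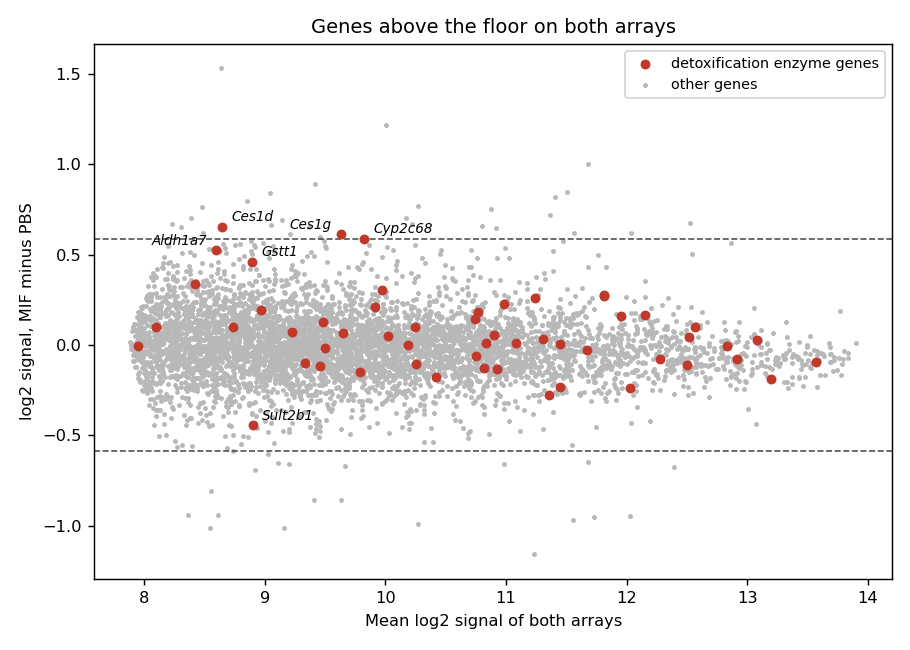
Log2 signal difference, MIF minus PBS, against the mean log2 signal of both arrays, for the 5545 genes over the floor on both. Detoxification enzyme genes are in colour, other genes in grey, and dashed lines mark 1.5-fold. Named are the genes more than 0.4 apart on the log2 scale, Ces1d, Ces1g, Cyp2c68, Aldh1a7 and Gstt1 above 0 and Sult2b1 below it.

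Separate probe sets of a gene show how far its readings differ within these arrays, not the spread between cell preparations. Some, such as those ending in _x_at or _s_at, can match related transcripts, so their spread is not array error alone. Over 1800 genes with several probe sets measured on both arrays, the pooled SD of the log2 difference between probe sets was 0.15. Of 8 detoxification genes with several such probe sets, 6 had them all on one side of 0. The same share was not counted over the 1800 genes, so this count has nothing to be set against. The 3 probe sets of Gstm1 gave 0.26, 0.35 and 0.64, and the 4 of Akr1a1 gave values from -0.09 to -0.06. Those of Aldh9a1 gave -0.28 and -0.16. Aldh2 was split, at 0.27 and, on a probe set near the floor, -0.02. Gsto1 was split at -0.0079 and 0.13. A second probe set of Gstm3 had 340 with MIF and 222, under the floor, with PBS, a bound of at least 1.47-fold higher, against 1.04-fold for the brighter one. Ces1g, Cyp2c68, Aldh1a7, Gstt1 and Sult2b1 each rested on 1 probe set. The other 2 probe sets of Ces1d lay under the floor on both arrays, at 209 and 48.1 with MIF, against 108 and 49.2 with PBS.

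**Figure D4:**
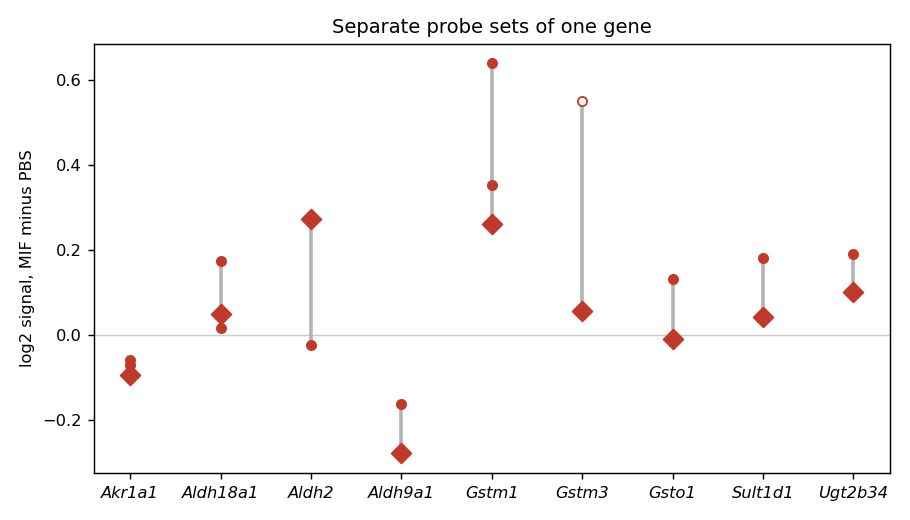
Log2 signal difference, MIF minus PBS, for each probe set of the genes with more than 1 assessed probe set. Diamonds are the probe set used for the gene, circles the others, and open symbols were under the floor with PBS (lower bounds). The probe sets of Akr1a1 lie together, and those of Gstm1, Gstm3 and Aldh2 are spread widest.

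Genes that serve these enzymes without being among them were also read. Over all assessed genes 6.82% were at least 1.2-fold higher with MIF and 6.29% lower, the shares beside which the counts of these lists stand. Suppliers of electrons and cofactors, such as the sulfate donor synthase Papss1 and the UDP-glucuronate enzyme Ugdh, were all within 1.2-fold in 17 of 17 cases, with a median log2 difference of -0.03 (0.0048 after removal of the trend with intensity and 0.03 from averaged probe sets). The largest were Slc35b2, a transporter of the sulfate donor, at 0.13 and the malic enzyme Me1 at 0.13 in one direction, and the cytochrome b5 reductase Cyb5r3 at -0.22 and Pgd of the pentose phosphate pathway at -0.19 in the other. Transcription factors that sense xenobiotics, and their partners, had a median of -0.06 over 11 assessed genes (0.0035 with the floor at the 20th percentile, or without _x_at, _s_at and _a_at probe sets), 1 of them at least 1.2-fold higher and 2 lower. Nr1i2, the xenobiotic receptor PXR, had 331 with MIF, against 268 with PBS (0.30), and Ahr, the dioxin receptor, had 312 with MIF, against 284 with PBS (0.14). Rxra, the partner of many nuclear receptors, had 578 with MIF, against 810 with PBS (-0.49), and Mafk, a partner of NRF2, had 377 with MIF, against 471 with PBS (-0.32).

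Other drug-metabolising enzymes had a median of -0.04 over 21 assessed genes (0.03 with the floor at the 20th percentile and 0.04 with none), with none at least 1.2-fold higher and 1 lower. Xdh, which oxidises purines, had 481 with MIF, against 670 with PBS (-0.48), and the thiosulfate sulfurtransferase Tst had 3338 with MIF, against 4004 with PBS (-0.26). The paraoxonase Pon3 and the arsenic methyltransferase As3mt led the other direction, both at 0.13. Steroid-converting enzymes and their regulators had a median of -0.02 over 15 assessed genes, 1 at least 1.2-fold higher and 1 lower. Rdh10, which makes retinal, had 416 with MIF, against 328 with PBS (0.35), and the hydroxysteroid dehydrogenase Hsd17b7 had 271 with MIF, against 234 near the floor with PBS (0.21). Nr5a2, a nuclear receptor that drives steroid synthesis in gut crypts, had 666 with MIF, against 853 with PBS (-0.36), and Hsd17b10 differed by -0.17.

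The labelled cell type was checked against its markers. All 10 epithelial markers, Epcam and Cdh1 among them, lay above the floor on both arrays, with a median log2 difference of -0.06, and 7 absorptive colonocyte markers had a median of 0.06. Of 6 goblet cell markers, 5 were higher with MIF (83.3%, against 46.5% of all genes measured on both arrays), a share over few genes. Of these, 2 passed 1.2-fold, as did 6.82% of all assessed genes. The mucus protein gene Clca1 had 7092 with MIF and 4993 with PBS (0.51). The transcription factor gene Spdef had 361 with MIF and 266 with PBS (0.44). Fibroblast markers included Dcn, at 678 with MIF and 235 with PBS (log2 difference 1.53), and Col3a1, at 554 with MIF and 227, under the floor, with PBS. Of the 7 in the list 4 lay under the floor on both arrays, among them Col1a1, at 88.7 with MIF and 15.3 with PBS. Their signals added up to 1877 with MIF and 751 with PBS, sums over different probe sets that describe the list and are no level. Of 5 T and NK cell markers, the granule genes Gzma, at 403 with MIF and 813 with PBS (-1.01), and Gzmb, at 282 with MIF and 541 with PBS (-0.94), were lower and made up most of sums of 779 with MIF and 1517 with PBS. The other 3, Cd3g, Cd8a and Nkg7, lay under the floor on both arrays. Of 7 myeloid markers, Cd14 had 1307 with MIF and 1318 with PBS, and Lyz2 exceeded the floor with MIF only. The other 5 lay under it on both arrays, as did Jchain, the only B and plasma cell marker found. Fabp2, the only small intestinal enterocyte marker found, had 5279 with MIF and 5657 with PBS. Of the hepatocyte markers, Ttr had 1250 with MIF, against 857 with PBS. Alb was under the floor at 51.3 and 51.7, as was Tat at 159 and 172. An adipocyte list chosen after the values were seen had Pparg at 1224 with MIF and 1254 with PBS. Its other genes found lay under the floor, Fabp4 at 53.2 and 26.4 and Lipe at 151 and 133. The part of these cells in the differences of detoxification genes was not tested, and fewer cells of a type cannot be told apart from less RNA per cell.

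**Figure D5:**
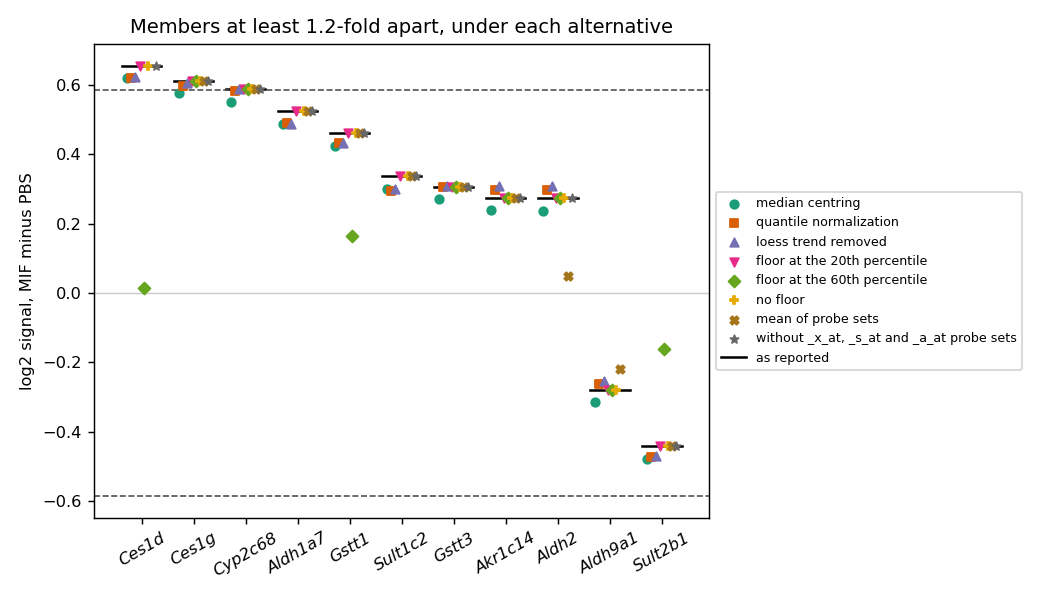
Log2 signal difference, MIF minus PBS, for the 11 genes at least 1.2-fold apart, as reported (bars) and under up to 8 other ways of processing (symbols). Dashed lines mark 1.5-fold. Ces1d, Gstt1 and Sult2b1 move towards 0 with the floor at the 60th percentile, as does Aldh2 with the mean of its probe sets. No plotted value crosses 0, which a change of floor could not have caused. Ces1d was not assessed with the mean of its probe sets. Aldh1a7 and Sult1c2 were not assessed with the floor at the 60th percentile, as both their signals lay under it. Aldh9a1 was not assessed without _x_at, _s_at and _a_at probe sets.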

How the data were processed

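Total RNA was extracted with Trizol and labelled as biotinylated cRNA by the standard Affymetrix protocol, per the labels' protocols. The deposited values are the authors' probe set intensity on a linear scale, as read from the values. The sources used here do not say how probes were summarised, corrected for background or scaled. Depth does not apply to arrays, and 1 array per group limits the precision.

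Of 15340 probe sets, 61 controls were left out. The annotation of the platform gave 14049 probe sets 1 symbol, 490 several and 740 none, and only the first were named. The column medians, 346 with MIF and 337 with PBS, were 0.04 apart in log2, below the 0.1 set for centring, and no centring was applied. The floor was taken over both arrays without controls. The brightest probe set stood for a gene, and its difference is log2 MIF minus log2 PBS. Where 1 array was under the floor the difference is a bound.

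The enzyme genes, gene lists and thresholds were chosen with earlier results of these data known. Every assessed enzyme gene could be named, and of each other list the 2 largest differences in each direction. Papss1, Ugdh and the marker genes were named outside this rule after their values were seen, as were Cyp27a1, Cyp7a1, Cyp24a1 and the other genes named under the floor. Promoters were shown for the largest differences, whereas no protein sequence was used here. Neighbouring genes were read from the gene order of GRCm38.p6, for 87 of the 88 genes.

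Alternatives were median centring, quantile normalization, removal of a loess trend (span 0.3), floors at the 20th and 60th percentile or none, averaging the probe sets of a gene, and leaving out probe sets ending in _x_at, _s_at or _a_at. The steps were tested on simulated data. Computation used statsmodels 0.14.6, pandas 2.3.3 and numpy 2.4.6 under Python 3.11.15, and plots matplotlib 3.10.9.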

Additional observations from a re-analysis of the deposited data

How the results depend on the processing

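No paired analysis was possible because each group has 1 array. The number of enzyme genes at least 1.5-fold higher with MIF, 3 as reported, was 1 after median centring (Ces1d), where the share of all genes was 0.480%. It was 5 with the floor at the 20th percentile (6.85%, all genes 1.34%) and 6 with no floor (6.82%, all genes 5.22%). Under the other alternatives it was between 2 and 3, with shares of all genes from 0.474% to 0.742%. Those 1.5-fold lower, 0 as reported, were 4 with no floor (Akr1d1, Aldh3b1, Cyp2c54 and Cyp2e1, at signals under the floor). At 1.2-fold, the 9 higher genes were 17 for a floor at the 20th percentile, 5 for one at the 60th and 19 for none, where the share of all assessed genes was 10.2%, 4.94% and 15.6%. The 2 lower genes were 4 after median centring (7.14%, all genes 8.74%), 4 with the floor at the 20th percentile (5.48%, all genes 7.59%) and 8 without one. The count was 1 at the 60th percentile, after removing the trend with intensity, from averaged probe sets and without _x_at, _s_at and _a_at probe sets. In those settings the share of all genes was from 5.49% to 6.92%. With no floor the 8 lower were 9.09% of 88, against 10.3% of all genes, and at 1.5-fold the shares of all genes were 5.22% higher and 2.27% lower. The cause of these moves was not tested beyond the change of floor, which alters how many genes are assessed. The median over enzyme genes measured on both arrays ranged from 0.0020 to 0.10 across the alternatives. Of 95 list and family medians recomputed, 16 changed sign. None moved beyond the probe set SD of 0.15, which is a spread for single genes and not for medians. Every median as reported lay within that SD of 0, so a median could change sign without counting as moved. The measure therefore cannot show that a direction held. Genes 1.5-fold apart as reported did not change sign under the alternatives in which they were assessed. Several of these alternatives could not have reversed them. A floor cannot turn a difference round, and Ces1g and Cyp2c68 rest on 1 probe set each, so averaging or leaving out probe sets did not alter them. Ces1d was under the floor, and so not assessed, when its probe sets were averaged.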

Other observations

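Without a floor, 6 of the 88 detoxification genes were at least 1.5-fold higher with MIF (6.82%), against 5.22% of all genes. Those at least 1.5-fold lower were 4 (4.55%), against 2.27% of all genes. Some of these lay under the floor on both arrays. Cyp2f2, a P450 known from lung airway cells that bioactivates naphthalene, had 156 on the MIF array, against 77.5 on the PBS array. Cyp2d22 had 159 with MIF, against 93.8 with PBS, and a second probe set of it had 70.0 with MIF, against 45.1 with PBS. Both passed 1.5-fold with the floor at the 20th percentile, where 1.34% of all assessed genes did so in this direction. Aldh3b1 had 49.3 with MIF, against 129 with PBS, and Cyp2e1, the ethanol-inducible P450 of liver, had 1.82 with MIF and 27.1 with PBS. At such signals the arrays give no measured level, and these values are listed without a fold.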
